A study of Mus musculus with 17 samples.

Results

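Transcript levels of the leukocyte tetraspanins were followed in sorted myeloid cells of BALB/c mice. The members were taken by gene symbol (Cd9, Cd37, Cd53, Cd63, Cd81 and Cd82), and 5 of the 6 matched one of the 10207 rows of the count table that carry a symbol. Cd53 had no matching row and is not analysed here. The study set macrophages from a mammary tumor beside marrow cells of mice with and without that tumor. Tumor-associated macrophages (TAM, 3 libraries) were sorted as CD11b+ Gr1- F4/80+ cells, after enrichment for CD45, from tumors of 4T1-luc cells, a luciferase-expressing line of BALB/c mammary carcinoma. The tumors arose from 100000 cells placed in the mammary fat pad of females and were taken at a size of 1 cm. Marrow cells that the labels call bone marrow-derived monocytes were CD11b+ Gr1+ F4/80low cells from the leg bones of tumor-bearing mice (BMDM_T, 4 libraries) or of untreated mice (BMDM_H, 4 libraries). By their labels TAM and BMDM_T mice were 8 weeks old and BMDM_H mice 12 weeks, so tumor and label age cannot be told apart between the marrow groups. The series' design text calls the healthy donors of mammary macrophages age-matched, and whether 8 weeks is the age at injection is not given in the sources used here. Tumor was digested with collagenase, while marrow was flushed from bone and its red cells lysed, so tissue, preparation and sort gate cannot be told apart between TAM and marrow. A second batch, with 4 more BMDM_H libraries and 2 of mammary gland macrophages, was not compared by gene, because its rows did not line up with the symbols.

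Tetraspanins are small membrane proteins that cross the membrane repeatedly and bind each other and partner proteins, such as integrins, immunoglobulin-family receptors and membrane proteases, to form membrane microdomains. In leukocytes they set where and how firmly adhesion receptors and antigen receptors are held, and several of them are carried on extracellular vesicles. CD37 is largely restricted to leukocytes, CD63 cycles through late endosomes and lysosomes, and CD9 and CD81 are close relatives that restrain fusion between macrophages.

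All values are counts of 3′-end reads, given as CPM (counts relative to a common library total) after scaling with TMM factors, which correct for differences in RNA composition between libraries. Total counts ran from 387940 to 1286844 in BMDM_H, from 931278 to 1218977 in BMDM_T and from 1748338 to 3747929 in TAM. The lowest was that of BMDM_H replicate 4, and this library stood apart from the other 3 of its group for 3 of the 5 members. Transcripts of a macrophage list (10 genes with a row) summed to 59020 to 73110 CPM in TAM and 2025 to 3583 CPM in the 8 marrow libraries. In marrow, 10 neutrophil genes summed to 134700 to 205400 CPM and 7 monocyte genes to 1356 to 3669 CPM, so neutrophil marker counts far exceeded monocyte marker counts in the cells labelled monocytes. Of the antigens used in the sort, Adgre1 (F4/80) had means of 154.2 ± 26.47 CPM in TAM (SD, n = 3), 11.25 ± 5.288 CPM in BMDM_T and 22.99 ± 5.882 CPM in BMDM_H (SD, n = 4 each). Ly6c2, a gene for Ly6C, which Gr1 antibodies also bind, had means of 6.939 ± 2.382, 1029 ± 214.3 and 1769 ± 569.9 CPM in the same order. Itgam (CD11b) had means of 430.1 ± 16.42, 553.2 ± 37.29 and 575.2 ± 77.99 CPM. Ly6g, the gene for Ly6G, the other antigen bound by Gr1 antibodies, had no matching row, so its level is not given.

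TAM against BMDM_T compares cells in the tumor with marrow cells of mice that carried the same tumor. All 5 members were called in this comparison. Cd63 and Cd81 were higher in TAM, and Cd37, Cd82 and Cd9 were lower. Such a count has to be read against the whole table, since 58.9% of the 7518 genes tested were called (30.1% higher and 28.8% lower). Libraries of the groups did not overlap for 4 of the 5 members, and for 58.1% of all genes tested. Calls rest on edgeR's quasi-likelihood test with Benjamini-Hochberg adjustment over all genes tested, at an adjusted p under 0.05. Whether each replicate came from its own mouse is not said in the labels, so the p-values measure only the spread between these libraries, which may be technical. In sorted bulk samples, fewer cells that express a gene and less of its RNA per cell cannot be told apart.

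**Figure D1:**
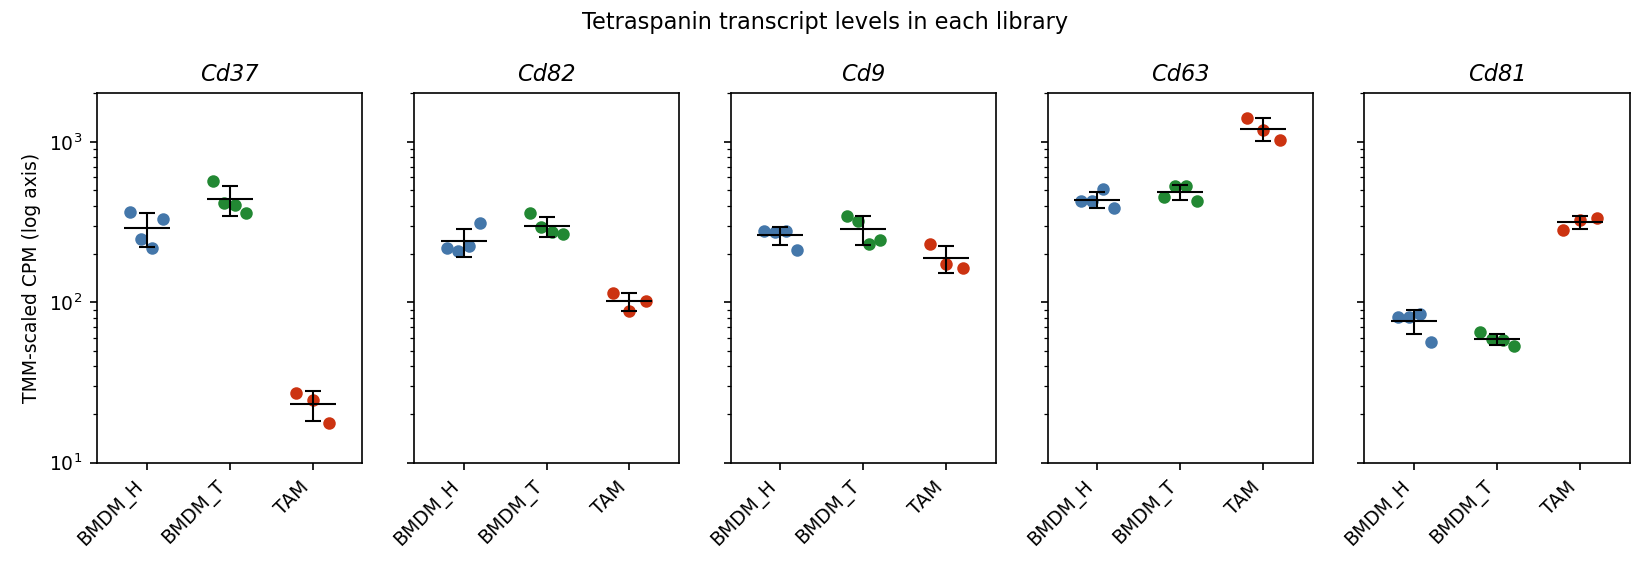
TMM-scaled CPM (log axis) of each member in every library, by group. Points are libraries, horizontal bars are group means and error bars are SD (n = 4 for BMDM_H and BMDM_T, n = 3 for TAM). Cd37 lies between 17.65 and 27.01 CPM in TAM and at 217.7 CPM or more in the marrow libraries, while Cd63 and Cd81 lie higher in TAM than in any marrow library.

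Cd37 showed the largest change among the members. This tetraspanin of leukocytes organizes integrin signalling and binds the fungal receptor Dectin-1. Its level was 573.6, 416.9, 400.8 and 358.8 CPM in BMDM_T replicates 1 to 4. The healthy marrow libraries had 364.8, 247.4, 217.7 and 327.9 CPM. The 3 TAM libraries had 27.01, 24.73 and 17.65 CPM, from 49, 47 and 69 counts. Every TAM library lay far below every marrow library, while the marrow groups overlapped. Against BMDM_T the log2 fold change was -4.27 ± 0.25 (SE, edgeR adjusted p = 1.49e-11), a 19.25-fold lower level in TAM. Of all genes tested, 5.4% had a larger change in either direction. Against BMDM_H it was -3.67 ± 0.25 (edgeR adjusted p = 1.38e-10). The gene (GENCODE M21, protein coding) lies on the minus strand at chr7:45233632-45239115 of GRCm38 (mm10). Its 3′ end overlaps Tead2, on the other strand, by 13 bases, and the strand setting of the counting is not given in the sources used here. Tead2 itself had 8, 5 and 23 counts in all over BMDM_H, BMDM_T and TAM.

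Cd82, also known as KAI1 and described as a suppressor of metastasis that restrains cell movement, was the other member with a clear fall. BMDM_T libraries had 359.9, 296.0, 274.9 and 264.8 CPM. BMDM_H libraries had 216.3, 209.1, 223.2 and 309.8 CPM. The TAM libraries, at 114.6, 87.87 and 101.3 CPM, were all below the lowest marrow library. The log2 fold change was -1.56 ± 0.18 against BMDM_T (SE, edgeR adjusted p = 3.02e-07), or 2.949-fold lower, and -1.22 ± 0.18 against BMDM_H (edgeR adjusted p = 9.41e-06). Of the genes tested, 24.0% changed more than Cd82 between TAM and BMDM_T. Cd82 lies on the minus strand at chr2:93419111-93463140. It overlaps Gm10804, on the other strand, by 10322 bases and holds Mir7001 (79 bases) on its own strand, and neither matched a row.

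Cd9, which limits cell fusion and gathers integrins and immunoglobulin-family partners, differed least. Its level was 347.1, 320.2, 229.0 and 243.4 CPM in BMDM_T. It was 279.5, 275.3, 278.6 and 211.7 CPM in BMDM_H and 230.4, 172.6 and 163.7 CPM in TAM. TAM replicate 1 lay above the lowest library of each marrow group, so the groups overlapped. The log2 fold change was -0.60 ± 0.18 against BMDM_T (SE, edgeR adjusted p = 0.009), or 1.512-fold lower, and 58.8% of the genes tested changed more. Against BMDM_H it was -0.48 ± 0.19 (edgeR adjusted p = 0.0337). That second call did not hold everywhere: it was lost with total counts as the only scaling (-0.44, adjusted p = 0.0531), with DESeq2 (-0.45, adjusted p = 0.0501), and when BMDM_H replicate 1, 2 or 3 or TAM replicate 2 or 3 was left out (adjusted p = 0.0645, 0.0567, 0.0572, 0.112 and 0.126). Cd9 lies on the minus strand at chr6:125460266-125494791. On the other strand it overlaps Gm28809 by 3316 bases and Gm26728 by 368 bases, and neither matched a row.

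Cd63, the tetraspanin of late endosomes, lysosomes and secretory granules, rose in TAM. Its level was 449.7, 533.6, 533.7 and 430.3 CPM in BMDM_T. BMDM_H was in the same range, at 428.7, 425.3, 507.4 and 384.7 CPM. TAM libraries had 1411, 1189 and 1029 CPM. The lowest TAM library was above the highest marrow library, and the marrow groups overlapped. The log2 fold change was 1.31 ± 0.17 against BMDM_T (SE, edgeR adjusted p = 1.15e-06), or 2.483-fold higher, with 29.8% of the genes tested changing more. Against BMDM_H it was 1.47 ± 0.17 (edgeR adjusted p = 3.28e-07). Cd63 lies on the plus strand at chr10:128900989-128912822, with no other gene overlapping it in the annotation.

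Cd81, the close relative of CD9 that is found on many kinds of cells, rose the most. It had 65.15, 59.2, 58.41 and 53.68 CPM in BMDM_T, from 51 to 71 counts. In BMDM_H it had 81.32, 81.39, 84.87 and 56.79 CPM, and in TAM 283.9, 325.7 and 336.2 CPM. Every TAM library was above every marrow library. The log2 fold change was 2.42 ± 0.16 against BMDM_T (SE, edgeR adjusted p = 9.18e-11), or 5.338-fold higher, and 12.9% of the genes tested changed more. Against BMDM_H it was 2.02 ± 0.16 (edgeR adjusted p = 1.61e-09). Cd81 lies on the plus strand at chr7:143052739-143067934, and its 5′ part overlaps R74862, on the other strand, by 948 bases.

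Both comparisons use the same 3 TAM libraries. Against BMDM_H, 2 members were higher and 3 lower, with 56.3% of all genes called, and libraries did not overlap for 4 of 5 members against 53.8% of all genes. The median log2 fold change of the 5 members was -0.60 against BMDM_T and -0.48 against BMDM_H, where all genes tested had medians of 0.03 and 0.01. The members thus moved in both directions, and their median describes none of them. Several marker lists moved with the same split between TAM and marrow. All 10 neutrophil genes tested were lower in TAM, with a sum of 326.3 to 553.0 CPM there. B cell genes, of which 7 had a row, summed to 379.1 to 643.7 CPM in BMDM_T, 161.1 to 385.6 CPM in BMDM_H and 7.165 to 14.73 CPM in TAM, where Cd79a, Ms4a1, Vpreb3 and Igll1 had 0 counts. Platelet and megakaryocyte genes, of which 9 had a row, summed to 93.96 to 217.8 CPM in marrow and 385.6 to 885.2 CPM in TAM, where Gp1ba had 0 counts. Of the 5 tested, 1 was higher and 4 were lower in TAM than in BMDM_T, where 30.1% of all genes were higher and 28.8% lower. Epithelial genes, of which 8 had a row, summed to 94.25 to 130.0 CPM in TAM and 25.63 to 92.94 CPM in marrow. The part of these cells in the tetraspanin values was not tested.

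**Figure D2:**
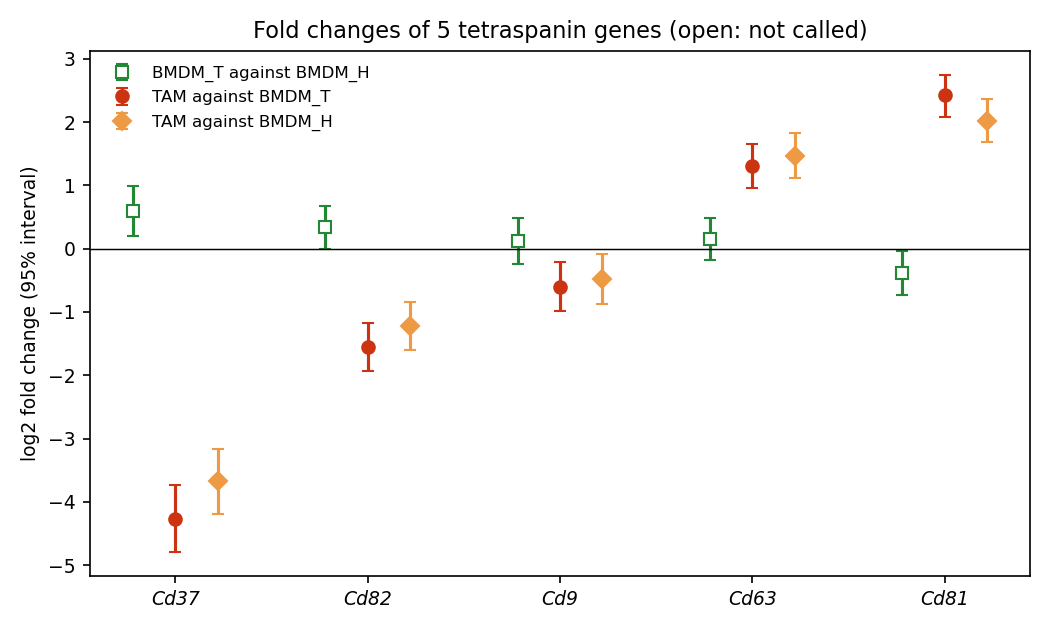
Log2 fold change of each member with its 95% interval in the 3 comparisons, filled where the adjusted p was under 0.05. Cd37 lies lowest, at -4.27 and -3.67 for TAM against BMDM_T and BMDM_H, Cd81 lies highest, at 2.42 and 2.02, and no member is filled for BMDM_T against BMDM_H.

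The sequence upstream of the RefSeq start is shown for the member that fell the most and the pair that rose. Each window is the 250 bases before the start, 5′ to 3′ on the gene's strand, from RefSeq on GRCm38.p6. The Cd37 window is chr7:45238840-45239089 (minus strand), that of Cd81 is chr7:143052500-143052749 (plus strand) and that of Cd63 is chr10:128909095-128909344 (plus strand). Each of these RefSeq starts lies downstream of the GENCODE start of the gene placed above. The Cd37 and Cd63 windows thus lie inside the GENCODE genes, and the Cd81 window reaches into its gene. Capitals mark matches, on either strand, to 5 motifs that were searched by their letters: the GC box GGGCGG, the E-box CACGTG, the TATA box TATAAA, the AP-1 motif TGANTCA and GAGGAAG, which holds the GGAA core bound by ETS factors of myeloid cells.
Cd37: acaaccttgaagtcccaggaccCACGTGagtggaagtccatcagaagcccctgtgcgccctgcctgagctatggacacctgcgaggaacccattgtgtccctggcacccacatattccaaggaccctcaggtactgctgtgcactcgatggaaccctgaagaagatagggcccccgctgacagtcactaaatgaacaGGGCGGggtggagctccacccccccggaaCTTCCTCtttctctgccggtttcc
Cd81: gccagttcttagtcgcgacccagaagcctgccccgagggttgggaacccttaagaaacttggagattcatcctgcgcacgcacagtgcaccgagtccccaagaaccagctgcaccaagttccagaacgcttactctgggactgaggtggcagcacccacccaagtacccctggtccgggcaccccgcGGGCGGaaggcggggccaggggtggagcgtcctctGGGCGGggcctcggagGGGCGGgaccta
Cd63: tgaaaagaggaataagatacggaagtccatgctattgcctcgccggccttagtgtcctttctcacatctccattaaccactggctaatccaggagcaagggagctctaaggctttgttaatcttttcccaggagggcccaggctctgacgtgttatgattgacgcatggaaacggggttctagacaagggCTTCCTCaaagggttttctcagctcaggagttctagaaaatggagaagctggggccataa

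The window of Cd81 held 3 GC boxes, with first bases 63, 28 and 12 bases before the start, and was rich in G and C (65.6%, with 16 CpG dinucleotides). The Cd37 window held 1 GC box at 53 bases, 1 E-box at 228 bases and 1 match to GAGGAAG, on the other strand, at 24 bases before the start. Its G and C content was 58.8%, with 8 CpG. The Cd63 window had 1 match to GAGGAAG, also on the other strand, at 60 bases, a G and C content of 48.8% and 6 CpG. No matches overlapped. Of 32851 such windows in the RefSeq table, 32.7% held a GC box, 6.02% the E-box, 12.4% the TATA box, 6.75% the AP-1 motif and 10.6% GAGGAAG, and the median window had 52.4% G and C and 6 CpG. These matches describe the letters of the windows and were not related to the expression values.

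The balance between members was read within each library as a ratio of counts, which no scaling between libraries can move. Counts of Cd37 were 0.429 to 0.852 times those of Cd63 in BMDM_H and 0.751 to 1.28 times in BMDM_T, but 0.0172 to 0.0208 times in TAM. Cd37 counts were 2.57 to 5.77 times those of Cd81 in BMDM_H, 6.68 to 8.8 times in BMDM_T and 0.0525 to 0.0951 times in TAM. For these pairs TAM did not overlap with marrow, and the order of Cd37 and Cd81 was turned around. Such separation was not counted over other pairs of genes. Among single genes tested, 58.1% did not overlap between TAM and BMDM_T and 53.8% between TAM and BMDM_H. Cd81 also changed places with Cd82: its counts were 0.183 to 0.389 times those of Cd82 in BMDM_H, 0.181 to 0.212 times in BMDM_T and 2.48 to 3.71 times in TAM. The relatives Cd9 and Cd81 behaved likewise, with Cd9 at 3.28 to 3.73 times Cd81 in BMDM_H, 3.92 to 5.41 times in BMDM_T and 0.487 to 0.812 times in TAM. Cd63 counts exceeded Cd81 counts in all groups, by 3.06 to 4.97 times in TAM and 5.23 to 9.14 times in marrow. Such ratios follow 3′-end counts and are not ratios of molecules between genes.

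**Figure D3:**
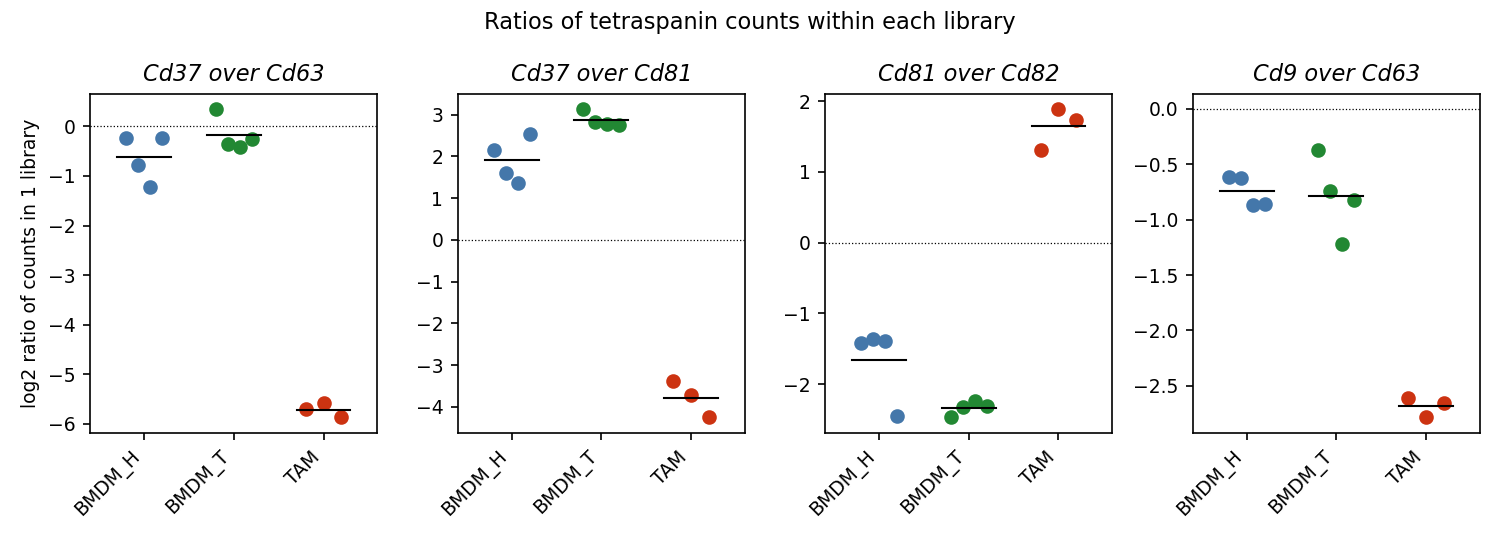
Log2 ratio of the counts of paired members within each library (points) with group means (bars). TAM libraries lie apart from marrow for each pair drawn, with Cd37 over Cd63 between -5.86 and -5.59 in TAM.

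BMDM_T against BMDM_H addresses whether marrow cells of this gate differ between mice with and without a tumor. No member was called by edgeR (0 of 5), where 4.82% of the genes tested were called, 2.82% higher and 2.00% lower. DESeq2 and limma-voom also called 0 of 5, and like the edgeR fit they held no block for the replicate number. With that block, edgeR called 1 member. At an unadjusted p under 0.05 there were 2 of 5, Cd37 and Cd81. No member had groups without overlap, against 11.2% of all genes tested. The median of the 5 log2 fold changes was 0.16 and that of all genes -0.02.

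Cd37 had the largest difference between the marrow groups. BMDM_T replicates 1 to 3 were above the highest BMDM_H library (364.8 CPM), and replicate 4 was below it. The log2 fold change was 0.59 ± 0.19 (SE), with a 95% interval of 0.20 to 0.99 and an edgeR adjusted p of 0.0824. With the replicate number as a block, Cd37 was called higher in BMDM_T (0.61, edgeR adjusted p = 0.0178). It was also called when all libraries were thinned to the lowest total (0.72, adjusted p = 0.0262) and without BMDM_H replicate 1 (0.74, adjusted p = 0.0448). Over the 20 alternatives the adjusted p ran from 0.0178 to 0.291, and the log2 fold change from 0.45 to 0.74. Marker lists moved between the marrow groups too. In BMDM_T, 3 of 5 B cell genes and 4 of 10 neutrophil genes tested were higher, while 5 of 7 monocyte genes and 8 of 8 red cell precursor genes were lower. Over all genes tested, 2.82% were higher and 2.00% lower. Of 10 macrophage genes, 1 was higher and 4 were lower. Red cell precursor genes, of which 8 had a row, summed to 62.37 to 322.7 CPM in BMDM_H and 6.263 to 21.68 CPM in BMDM_T, where Kel and Cldn13 had 0 counts. Basophil and mast cell genes, of which 6 had a row, summed to 582.5 to 765.7 CPM in BMDM_H and 1165 to 1372 CPM in BMDM_T. Their sum in TAM was 4.605 to 15.43 CPM. Between the marrow groups 1 of the 4 tested was higher in BMDM_T and 3 were not called. The sort antigens Adgre1 (-1.12 ± 0.32, edgeR adjusted p = 0.0433) and Ly6c2 (-0.79 ± 0.22, edgeR adjusted p = 0.0381) were lower in BMDM_T. The part of these cells in the values of Cd37 and the other members was not tested.

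For the other members the test found no difference past the threshold between the marrow groups, and the interval of Cd81 did not include 0. Cd81 averaged 59.11 ± 4.708 CPM with a tumor and 76.09 ± 12.97 CPM without (SD, n = 4 each), a log2 difference of -0.39 with a 95% interval of -0.74 to -0.04 (edgeR adjusted p = 0.211). Cd82 differed by 0.34 (95% interval -0.00 to 0.68, adjusted p = 0.291). For Cd63 the difference was 0.16 (95% interval -0.18 to 0.49) and for Cd9 0.12 (95% interval -0.24 to 0.48), with adjusted p-values of 0.682 and 0.80. The intervals of Cd63 and Cd9 leave room for changes of up to 0.49 and 0.48 on the log2 scale. Without BMDM_H replicate 4, the library that stood apart, the differences of Cd81, Cd82 and Cd9 were -0.47, 0.47 and 0.04, and none was called (adjusted p = 0.128, 0.118 and 0.943).

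Ratios within libraries showed the same marrow groups from another side. In 3 of the 10 pairs, those of Cd9, Cd37 and Cd63 with Cd81, every BMDM_T library had a higher ratio to Cd81 than every BMDM_H library. No such share was computed over other pairs of genes. Among single genes tested, 11.2% had marrow groups without overlap. The mean log2 ratio differed by 0.46 for Cd9 over Cd81, 0.95 for Cd37 over Cd81 and 0.51 for Cd63 over Cd81. Each reached p = 0.0286 in a 2-sided exact permutation test, the smallest that 4 against 4 libraries allow, and 0.0952 after Benjamini-Hochberg adjustment over the 10 pairs. None passed, and the pairs share Cd81. The permutation ignored the replicate number, although same-numbered marrow libraries deviated together across genes. For the other 7 pairs the exact p was 0.114 or higher.

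Ordered by level, Cd37 ran from BMDM_T over BMDM_H to TAM, with means of 437.5 ± 93.96, 289.4 ± 68.48 and 23.13 ± 4.878 CPM (SD). Cd82 followed the same order, with means of 298.9 ± 42.72, 239.6 ± 47.14 and 101.3 ± 13.39 CPM, and so did Cd9, with 284.9 ± 57.62, 261.3 ± 33.1 and 188.9 ± 36.2 CPM. Cd63 was ordered TAM, BMDM_T and BMDM_H, at 1209 ± 192, 486.8 ± 54.64 and 436.5 ± 51.31 CPM. Cd81 was ordered TAM, BMDM_H and BMDM_T, at 315.2 ± 27.69, 76.09 ± 12.97 and 59.11 ± 4.708 CPM. For all 5 members the test told TAM apart from both marrow groups, and did not tell the marrow neighbours apart. The spread between libraries of a group was smallest for Cd81 in BMDM_T (a coefficient of variation of 8.0%) and largest for Cd37 in BMDM_H (23.7%). Within TAM, replicate 1 was the highest library for Cd9, Cd37, Cd63 and Cd82 and the lowest for Cd81.

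Among the 25 other tetraspanin genes listed, 14 had a row and 10 were tested. In TAM against BMDM_T, 5 were higher, 4 lower and 1 was not called, with a median log2 fold change of 0.62. The shares over all genes tested were 30.1% higher and 28.8% lower. Tspan4, a component of the migrasomes that moving cells leave behind, rose from 16.55 ± 2.406 CPM in BMDM_T to 143 ± 17.26 CPM in TAM (log2 fold change 3.10 ± 0.20, edgeR adjusted p = 5.76e-11). Tspan3 rose by 2.05 ± 0.30 and Tspan31 by 1.26 ± 0.19 on the log2 scale. Tspan5 fell from 42.39 ± 8.789 to 7.931 ± 3.364 CPM (-2.50 ± 0.30, edgeR adjusted p = 5.53e-07). Tspan14 had a change of -0.72 ± 0.16, and Tspan13 one of -1.16 ± 0.27. The remaining calls, outside the rule for named genes and named after their values were seen, were Tspan33 (1.89 ± 0.50), Cd151 (0.88 ± 0.21) and Tspan32 (-4.23 ± 0.44). Against BMDM_H, 4 of the 10 were higher, 2 lower and 4 not called, with a median of -0.13. There 28.0% of all genes were higher and 28.3% lower. Between the marrow groups only Tspan33 was called of the 10, with means of 10.02 CPM in BMDM_H and 2.306 CPM in BMDM_T (-1.96 ± 0.53, edgeR adjusted p = 0.031). Of all genes tested, 4.82% were called there.

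**Figure D4:**
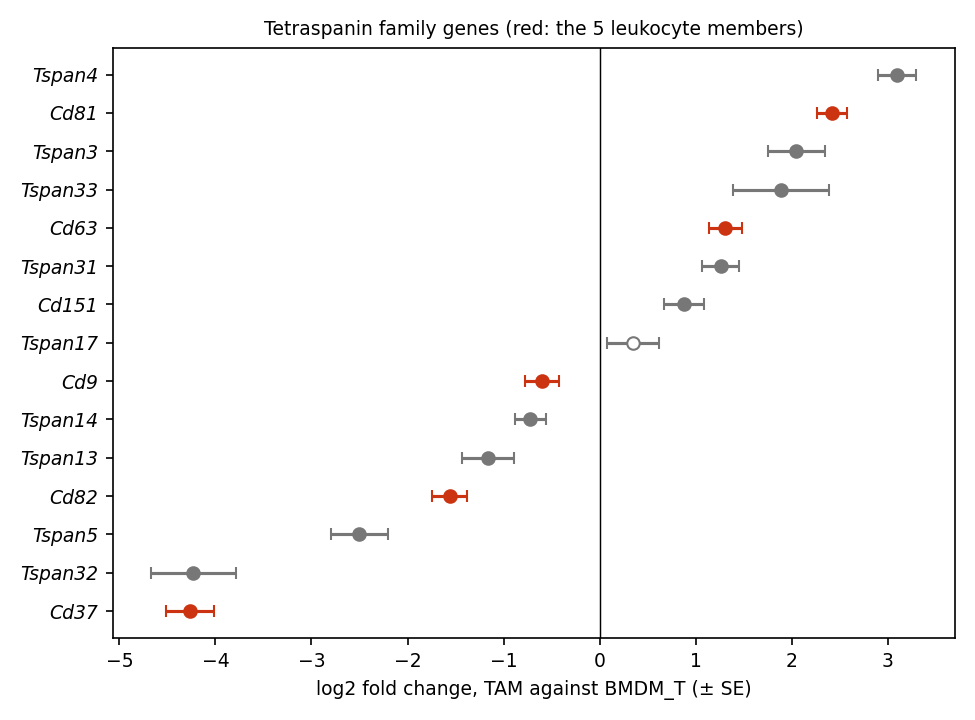
Log2 fold change (± SE) of the 5 members (red) and the 10 other tetraspanin genes tested (grey) in TAM against BMDM_T. Open points were not called. The members run from Cd37 at -4.27 to Cd81 at 2.42, and Tspan4 lies above them at 3.10.

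Of 23 known partners of tetraspanins listed, 17 were tested. In TAM against BMDM_T, 10 of them were higher, 4 lower and 3 not called, with a median of 1.30. Over all genes tested, 30.1% were higher and 28.8% lower. Igsf8, which binds CD9 and CD81 directly, rose from 157.1 ± 16.84 to 387.6 ± 43.79 CPM (log2 fold change 1.30 ± 0.17, edgeR adjusted p = 2.24e-06). Itgb1, the integrin beta chain that several tetraspanins bind, rose by 1.81 ± 0.16, and the adhesion receptor Icam1 by 1.96 ± 0.26. Cd44 had a change of -0.96 ± 0.31 and Ifitm1 one of -1.95 ± 0.29. Ifitm1 was also the partner that rose in BMDM_T against BMDM_H, from 53.54 ± 19.3 to 993.1 ± 429.7 CPM (4.13 ± 0.31, edgeR adjusted p = 5.22e-08). The only other partner called there was Vcam1, named after its value was seen, with means of 29.08 CPM in BMDM_H and 8.1 CPM in BMDM_T (-1.84 ± 0.31). Of all genes tested, 4.82% were called in that comparison. Against BMDM_H, 9 partners were higher in TAM and 2 lower, where 28.0% of all genes were higher and 28.3% lower.

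Cd63 takes part in lysosomal membranes and in vesicles, and both lists were read beside it. In TAM against BMDM_T, 30.1% of all genes tested were higher and 28.8% lower. Of 15 genes of the lysosomal membrane and lumen, all tested, 10 were higher there and 5 were not called, with a median of 1.11. Lgmn, a lysosomal protease, had the largest change (5.17 ± 0.22), followed among the named genes by Cd68 (2.33 ± 0.19) and Lamp1 (1.18 ± 0.16), both glycoproteins of the lysosomal membrane. Against BMDM_H, 9 were higher and 6 not called, where 28.0% of all genes were higher. Between the marrow groups 1 of 15 was called, Scarb2 (0.66 ± 0.17, edgeR adjusted p = 0.0238), where 4.82% of all genes were called. Of 19 vesicle budding and release genes tested (25 listed), 5 were higher in TAM than in BMDM_T, 4 lower and 10 not called, with a median of -0.06. The share called in either direction over all genes was 58.9%. Sdcbp (syntenin), which links syndecans to vesicle budding, rose by 1.49 ± 0.34, Tsg101 by 0.72 ± 0.16 and Chmp3 by 0.68 ± 0.22. Rab27a, the small GTPase that docks secretory granules and multivesicular bodies, fell from 188.9 ± 35.49 to 15.73 ± 2.72 CPM (-3.57 ± 0.21, edgeR adjusted p = 1.55e-11), while Rab35 and Vps28 had changes of -0.61 ± 0.15 and -0.59 ± 0.17.

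Genes induced by tissue dissociation and stress also moved with the comparison: of 15 tested, 9 were higher and 2 lower in TAM than in BMDM_T. For all genes tested these shares were 30.1% and 28.8%. Fosb, Atf3 and Nr4a1 rose by 4.83, 4.70 and 3.93 on the log2 scale, and Ier2 and Egr1 had changes of -1.70 and -1.19. In BMDM_T against BMDM_H, 1 was higher and 4 lower, with Ier3 at 0.88, Nr4a1 at -1.83 and Atf3 at -1.84. There 2.82% of all genes tested were higher and 2.00% lower. Whether the members respond to these conditions was not tested.

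The genes closest in pattern to each member were found among 3989 genes with a mean of at least 30 CPM, by the root mean square difference of log2(CPM + 1) profiles, each centred on its own mean, over the 11 libraries. These are descriptions, since the libraries fall into marrow and TAM and most genes follow that split. Closest to Cd37 were Rac2, the GTPase of blood cells (0.22), and Osgin1 (0.27), with means of 12.7 and 5.285 CPM in TAM and 208.0 and 109.0 CPM in BMDM_T. Cd81 was matched by Hsd3b7 (0.11), an enzyme of bile acid synthesis, and Pepd (0.20), a dipeptidase. Cd63 was matched by Emd (0.16), a protein of the inner nuclear membrane. For Cd82 they were Flot1 (0.14), a scaffold of membrane microdomains, and the cytokine subunit gene Ebi3 (0.16). For Cd9 they were Lamtor1 (0.17), which anchors signalling complexes on lysosomes, and Arl6ip1 (0.17). With a pseudocount of 10 in place of 1, Cd63 had Emd again, Cd81 and Cd82 had 1 of 2, and Cd37 and Cd9 had 0 of 2. Among the members themselves, Cd63 and Cd81 (0.47) and Cd9 and Cd82 (0.47) were the closest pairs, and Cd37 and Cd81 (2.77) were the farthest apart.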

How the data were processed

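The authors deposited raw counts per gene from 3′-end mRNA libraries with molecular identifiers. The tools listed in the submitters' processing notes are bcl2fastq, STAR (2.4.2a) and HTSeq, and the build is mm10. For the collapsing of identifiers, annotation, strand setting and gene filter, the sources used here give nothing. Of 24421 rows, 10207 carry a symbol. Over these, Spearman correlations between batch 1 and batch 2 libraries were -0.018 to 0.002, so only the 11 libraries of batch 1 were compared by gene.

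One edgeR 4.0.16 fit (R 4.3.3) covered the 3 groups (filterByExpr, TMM, glmQLFit, glmQLFTest), with Benjamini-Hochberg adjustment over 7518 genes. SE is the unshrunken log2 fold change over the square root of F. The procedure was also run on simulated counts, drawn independently for each library with few genes changed, a setting unlike that of TAM against marrow. Its outcome is not reported here. Replicate pairs differed by more than sampling noise (chi-square per degree of freedom 2.67 to 14.62). Same-numbered BMDM_T and BMDM_H libraries deviated together (r = 0.21, 0.24, 0.13 and 0.12 across genes, above the limit of 0.1), though the labels do not say what the number shares. The replicate number was a block in an alternative only. Other alternatives were RLE factors, total counts only, no filter, DESeq2 1.42.0, limma-voom (3.58.1), only the groups compared, libraries left out and thinning. The marker and pathway lists held 223 entries, of which 172 had a row. Named genes are the members, up to 3 called genes per direction and pathway list for TAM against BMDM_T and up to 2 for BMDM_T against BMDM_H (smallest p, at least 30 CPM in the higher group), the sort antigens, and the 2 genes closest to each member. Some genes that this rule names are not reported here. Members and lists were chosen with earlier results of these data known.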

Additional observations from a re-analysis of the deposited data

Results flagged for a closer look

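Of the 10 sets of 4 marrow libraries examined (5 members in BMDM_H and in BMDM_T), 3 held a library whose gap to its nearest neighbour, as a share of the whole range, exceeded Dixon's critical value for 4 samples. In each case it was BMDM_H replicate 4, the library with the lowest total, and chance sets off this limit in about 1 group in 20. Cd9 was at 211.7 CPM there (82 counts, 95% exact Poisson interval 168 to 263 CPM, counting error only), against 275.3 to 279.5 CPM in the other 3. Cd81 was at 56.79 CPM (22 counts, 35.6 to 86.0 CPM), against 81.32 to 84.87 CPM. Cd82 was at 309.8 CPM (120 counts, 257 to 370 CPM), against 209.1 to 223.2 CPM. The counting interval of Cd81 reached the other libraries, while those of Cd9 and Cd82 did not reach their values. Those values have counting error as well. For Cd9 the intervals of replicates 1 to 3 (251 to 310, 247 to 306 and 236 to 327 CPM) overlapped that of replicate 4. For Cd82 that of replicate 3 (185 to 267 CPM) did, and those of replicates 1 and 2 (191 to 244 and 185 to 236 CPM) did not. Cd9 and Cd81 were low and Cd82 high in the same library.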

How the results depend on the processing

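Under 20 alternatives, each member kept its direction in all 3 comparisons. Cd37, Cd63, Cd81 and Cd82 stayed called in both TAM comparisons, and Cd9 in TAM against BMDM_T (log2 fold change -0.77 to -0.45, adjusted p 0.00139 to 0.0433). Cd9 in TAM against BMDM_H fell short with total counts only (-0.44) and with DESeq2 (-0.45), and ran from -0.64 to -0.39 as libraries were left out, with 4 to 5 members called. In BMDM_T against BMDM_H, 1 member, Cd37, was called with the replicate block (0.61), with thinning (0.72) and without BMDM_H replicate 1. It ran from 0.45 to 0.74 as libraries were left out, with 0 to 1 members called. The block changed no other member's call. Genes of the pathway lists called between marrow groups numbered 9 of 76 tested, where 4.82% of all genes were called. They numbered 5 when BMDM_H replicates 3 and 4 were left out together, 4 to 9 as single libraries were, and 10 with the replicate block. Over all genes the marrow groups gave 362 calls, 179 without those 2 libraries, 239 without BMDM_H replicate 2 and 228 when thinned. The number was higher, at 467, with the replicate block, and at 409 without TAM replicate 3. Thinning left 2779 calls of 4431 for TAM against BMDM_T and 2693 of 4233 for TAM against BMDM_H, with 5166 genes tested. Scaling by total counts moved the median of all genes to -0.12 in BMDM_T against BMDM_H and 0.17 in TAM against BMDM_T. The cause of these shifts was not tested. Cd81 in marrow rests on 22 to 103 counts per library, which limits its precision.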
